A study of Saccharomyces cerevisiae W303 with 4 samples.

Results

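The genes described here are the nuclear protein-coding genes of budding yeast that are interrupted by an intron and do not encode ribosomal proteins. They were taken from the R64 annotation (the sacCer3 genome) as genes with 2 or more coding segments separated by at least 20 bp, without the RPL, RPS and RPP genes for ribosomal proteins and without EFB1. This rule found 181 of 6002 genes, called intron genes in the following, and it used no ChIP value. Of these, 173 have 1 intron and 8 have 2, which gives 189 introns with lengths from 49 to 1002 bp. Another 47 genes, whose coding segments lie closer than 20 bp, were placed in no group.

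The chromatin immunoprecipitation (ChIP-seq) was made from asynchronous W303 yeast in which Zuo1, a J-protein co-chaperone of the ribosome that is also found in the nucleus, carries a Myc tag at its C terminus. There are 2 libraries of DNA precipitated with an antibody against Myc (IP) and 2 of input DNA. The authors called peaks once, on the pooled libraries, so the 1594 peaks carry no value of a single replicate and no spread between cultures can be given. A strain without the tag was not analysed here, and the signal that a gene gives without tagged Zuo1 was therefore not tested.

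Introns are removed from the transcript by the spliceosome, which recognises a 5′ splice site (GTATGT in most yeast introns), a branch site (TACTAAC) and a 3′ splice site ending in AG. Most yeast genes have no intron. Those that do are rich in genes for ribosomal proteins, and the rest serve such tasks as the cytoskeleton, vesicle transport, ubiquitin transfer, meiosis and mRNA metabolism. Some introns also host a small nucleolar RNA (snoRNA), which guides the modification of ribosomal RNA.

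Peaks were found in the gene, from start to stop codon, in 34 of the 181 intron genes (18.8%). The same holds for 17.9% of all nuclear genes and for 15.5% of the 5636 intronless genes, or 14.8% when the intronless genes are weighted to the lengths of the intron genes. The share was made up of unlike parts. All 14 intron genes within 20 kb of a chromosome end carried a peak, whereas only 36 of 231 intronless genes there did (15.6%). Most of these 14 genes are annotated as helicases or helicase-like proteins of the Y′ element, a repeat next to the telomere, and they are described separately at the end. Some of their peaks also covered neighbours that are not intron genes. The intronless genes there were not sorted by membership in this repeat, so intron and repeat cannot be told apart in this contrast. Outside the terminal 20 kb, 20 of 167 intron genes had a peak (12%), beside 836 of 5405 intronless genes (15.5%, or 14.8% after weighting by length). Peaks of at least 3-fold enrichment were found in 8 of these 167 genes (4.79%) and in 6.88% of the intronless genes outside the terminal 20 kb. No test over genes was made, because genes are not replicates, so these shares are a description of 1 pooled list.

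Genes for ribosomal proteins, the other large class of intron genes, stood at another level. Of 90 with an intron (EFB1 included), 85 had a peak in the gene (94.4%) and 72 in the intron (80%). Of 48 without an intron, 41 had a peak (85.4%). Peaks of at least 3-fold were fewer, in 14 of the 90 genes with an intron (15.6%) and in 15 of the 48 without (31.2%).

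Outside the terminal 20 kb, the intron genes with a peak were longer than those without. The span from start to stop codon had a median of 1250.5 bp in the 20 genes with a peak and 777 bp in the 147 without. In the shortest length class, up to 499 bp, 2 of 35 intron genes had a peak, and in the next, up to 728 bp, 1 of 32. In the longest class, above 1460 bp, 8 of 34 did. The intronless genes of the same classes had shares of 14.2%, 11.3% and 16.0%, and thus varied less with length.

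**Figure D1:**
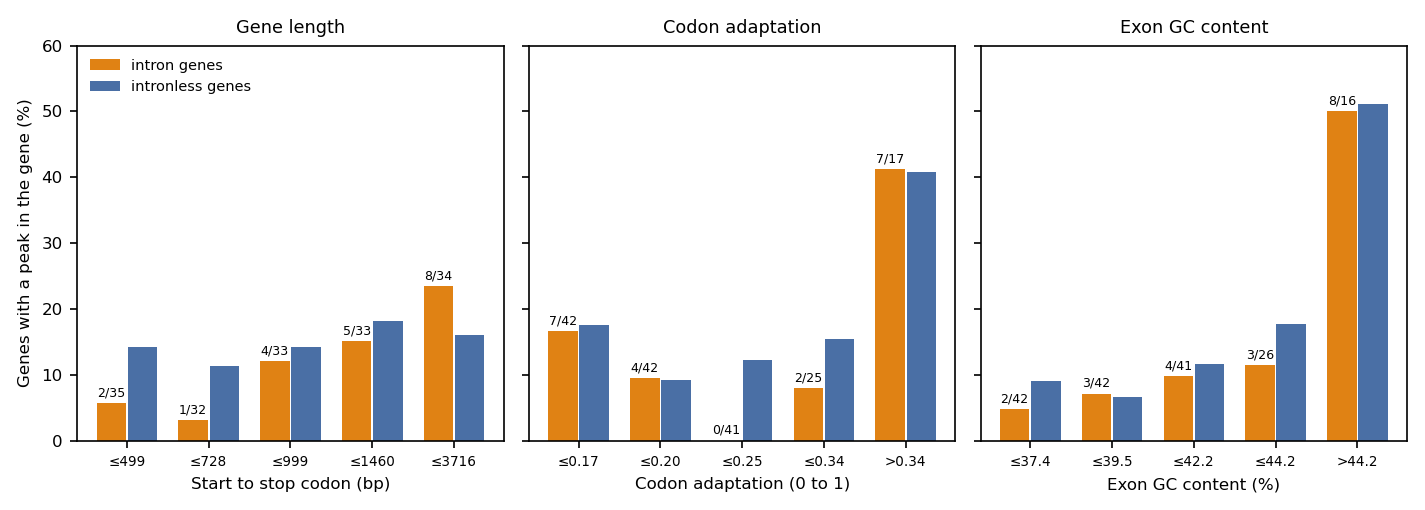
Percentage of genes with a peak in the gene (vertical axis) by gene length in bp, by codon adaptation and by exon GC content in percent, for intron genes (orange, with the number of genes with a peak and of all genes in the class) and intronless genes (blue), all outside the terminal 20 kb. In the class of highest GC content 8 of 16 intron genes had a peak and in that of highest codon adaptation 7 of 17, close to the blue bars, which reach 51.2% and 40.7%.

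Peaks were most frequent in the intron genes of highest GC content and of highest codon adaptation. Exon GC content had a median of 42.6% in the 20 genes with a peak and 39.2% in the 147 without, and the intronless genes showed nearly the same values (43.0% and 39.4%). Of the tenth of intron genes with the highest exon GC content, above 44.2%, 8 of 16 had a peak, as did 51.2% of the intronless genes above this value. Those with a peak were SRB2, HAC1, REC107, ASC1, CMC4, TAD3, YRA1 and VPS75. Of the tenth with the highest codon adaptation, a scale from 0 to 1 for the use of the codons that ribosomal protein genes prefer, 7 of 17 had a peak, as did 40.7% of intronless genes in that range. Below this class the share did not rise with codon adaptation. Up to a value of 0.171, 7 of 42 had a peak (16.7%), and from 0.198 to 0.247 0 of 41 did. The median was lower in the 20 genes with a peak (0.182) than in the 147 without (0.199). In intronless genes outside the terminal 20 kb it was higher with a peak (0.202) than without (0.194). The 7 genes of the highest class with a peak were ASC1, ECM33, TEF4, IMD4, DBP2, VMA10 and YRA1. The other 10 of this class included ACT1 (actin), COF1 (cofilin) and PFY1 (profilin), which had values of 0.757, 0.622 and 0.519 and no peak. When both classes were joined, a split chosen after the values were seen, 13 of 31 intron genes in either had a peak (41.9%) and 7 of 136 in neither (5.15%). For intronless genes, the same limits gave 44.9% and 8.86%. Transcript levels were not measured here, so the part of transcription in these shares was not tested.

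Motifs for G-quadruplexes (G4), the DNA structures for which the study examined Zuo1, were rare in these genes. A motif was defined as 4 tracts of at least 3 G, separated by loops of 1 to 25 nt, on either strand. None of the 20 intron genes with a peak held a motif, and 2 of the 147 without a peak did (IAI11 and PHO85). Among intronless genes, a motif was present in 95 of 836 with a peak (11.4%) and in 247 of 4569 without (5.41%). None of the 26 peaks over intron genes outside the terminal 20 kb contained a motif, beside 137 of all 1543 nuclear peaks. So few peaks allow no statement on a difference. The count leaves out peaks that touched only the upstream region. Of those, the peak of OM14 held 2 motifs and that of HPC2 held 1.

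The 5 strongest peaks with their summit inside an intron gene outside the terminal 20 kb lay in HAC1, SRB2, VPS75, DBP2 and REC107. HAC1 (chrVI:75179-76147, plus strand) encodes the transcription factor of the unfolded protein response. Its fold enrichment was 7.76, with a 95% counting interval of 6.86 to 8.75 from 265 IP fragments at the summit (exact Poisson; this and all later intervals cover counting error of the IP only). SRB2 (chrVIII:189131-189864, minus strand), a subunit of Mediator, followed with 7.31 (6.44 to 8.28). VPS75 (chrXIV:185460-186349, plus strand), a histone chaperone, had 5.72 (4.96 to 6.57). The interval of VPS75 reached up to 6.57 and that of SRB2 down to 6.44, so these neighbours overlapped, while HAC1 and VPS75 did not. DBP2, a DEAD-box RNA helicase, reached 4.60 (3.93 to 5.34), and REC107, which acts in the formation of meiotic double-strand breaks, 4.30 (3.64 to 5.04). All 5 summits lay in exons.

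These 5 summits shared a GC content that is uncommon in the yeast genome. The sequence of 121 bp centred on each is printed because this composition is the feature the strongest peaks had in common. Sequences are those of R64 in the direction of the gene, 5′ to 3′. In the first 4, capitals mark runs of at least 4 G or C, and in DBP2 (chrXIV:416116-416236, plus strand) they mark GGTGG or its complement. The windows are chrVI:75513-75633 (plus), chrVIII:189330-189450 (minus), chrXIV:186171-186291 (plus) and chrX:468675-468795 (minus).
HAC1: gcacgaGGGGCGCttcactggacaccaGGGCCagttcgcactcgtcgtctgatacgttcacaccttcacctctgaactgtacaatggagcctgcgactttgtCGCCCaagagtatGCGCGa
SRB2: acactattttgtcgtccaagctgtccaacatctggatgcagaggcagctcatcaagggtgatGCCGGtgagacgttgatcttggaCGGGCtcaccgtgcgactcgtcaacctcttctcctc
VPS75: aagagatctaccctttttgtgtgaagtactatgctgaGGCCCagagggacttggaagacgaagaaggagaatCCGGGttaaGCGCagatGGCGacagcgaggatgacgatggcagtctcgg
REC107: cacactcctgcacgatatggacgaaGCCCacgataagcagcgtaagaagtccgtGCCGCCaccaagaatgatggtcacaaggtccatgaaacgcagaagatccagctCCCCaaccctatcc
DBP2: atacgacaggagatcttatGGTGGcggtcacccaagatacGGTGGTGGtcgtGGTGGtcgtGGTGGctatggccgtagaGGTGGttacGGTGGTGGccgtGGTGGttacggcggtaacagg

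The GC content of these windows was 57.9% in HAC1, 54.5% in SRB2 and REC107, 52.9% in VPS75 and 59.5% in DBP2. A value of 50% or more was found in 3.02% of all nuclear windows of 121 bp. The window of DBP2 held 9 matches to GGTGG on either strand, overlaps counted, in the part of the gene that encodes the glycine-rich end of the helicase, and 3 or more matches occurred in 0.299% of all windows (the motif was chosen after the sequence was seen). The summits of intronless genes showed the same relation to enrichment. Of 290 summits of at least 3-fold, 87.2% had a GC content of 50% or more, with a median of 54.5%, and of 435 weaker ones 25.7%, with a median of 43.0%. In the intron genes, 5 of 6 summits of at least 3-fold and 1 of 15 weaker ones reached 50%, with medians of 54.5% and 43.0%. The exception among the strong summits was YRA1 with 28.1%, below the lowest value in the strong peaks of intronless genes (37.2%).

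**Figure D2:**
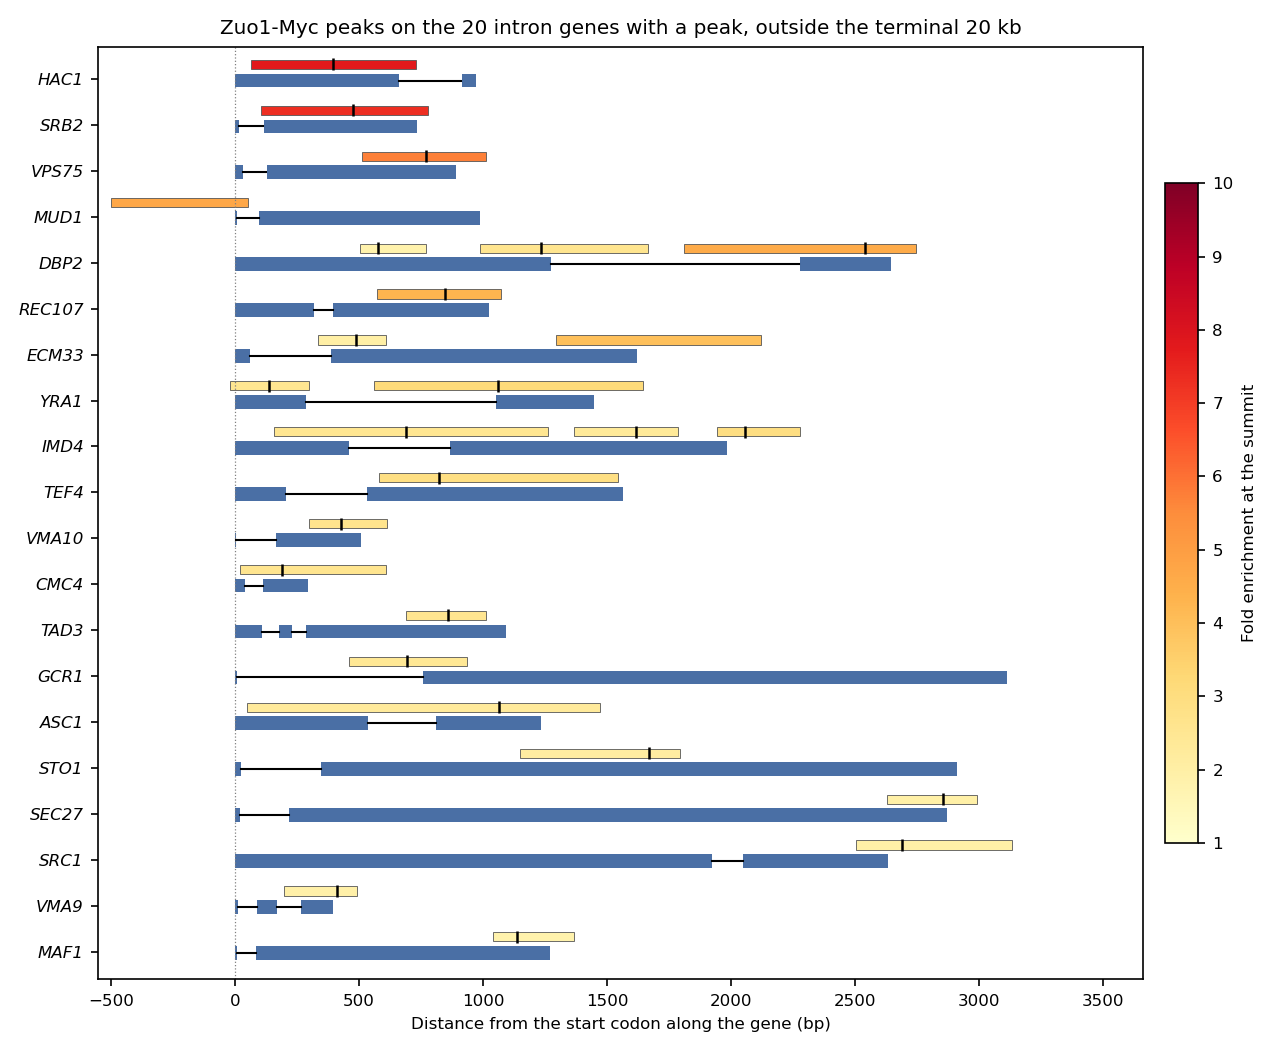
The 20 intron genes with a peak outside the terminal 20 kb, drawn from the start codon (dotted line) in bp, with exons as blue boxes, introns as black lines and peaks as bars above, coloured by fold enrichment and with a tick at the summit. Of 21 summits inside a gene 19 lie in exons, and the strongest bars, HAC1 (7.76) and SRB2 (7.31), are centred on exon 1 and exon 2. Bars are drawn up to 500 bp beyond a gene, and the summits of MUD1 and of the stronger ECM33 peak fall outside this range.

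The position of the peaks along these genes varied. Of the 26 peaks that touched an intron gene outside the terminal 20 kb, 19 had the summit in an exon, 2 in an intron and 5 outside the gene. Of the 21 summits inside a gene, 14 lay past its midpoint, and the median distance to the nearest splice site was 267 bp, with 5 summits within 100 bp. In SEC27, which encodes a coat protein of COPI vesicles, the summit lay at position 2855 from the start codon in a gene of 2870 bp. In TEF4, a subunit of translation elongation factor 1, the peak (2.91, interval 2.40 to 3.50) lay entirely in the second exon, with the summit at position 823. None of the 326 bases of its intron, which hosts SNR38, was covered.

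In 5 of the 20 genes the strongest peak had its summit outside the gene, in MUD1 and ECM33 within a neighbouring gene. The peak that overlapped MUD1, a protein of the U1 snRNP, had 4.69-fold enrichment and its summit in TEF2, at position −578 from the MUD1 start codon, and covered only 8 exon and 45 intron bases of MUD1. For ECM33, a cell wall protein, the stronger peak (3.98) had its summit in RPG1, and the peak with the summit in ECM33 itself reached 2.02. The summit of the strongest peak of IMD4 (2.94) lay between genes past its stop codon, as did those of SRC1 (1.97), an inner nuclear membrane protein, and VMA9 (1.93), a subunit of the vacuolar ATPase. These peaks covered 40, 128 and 130 exon bases of the genes. Of the 20 genes, 17 kept a peak when the summit had to lie in the gene.

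**Figure D3:**
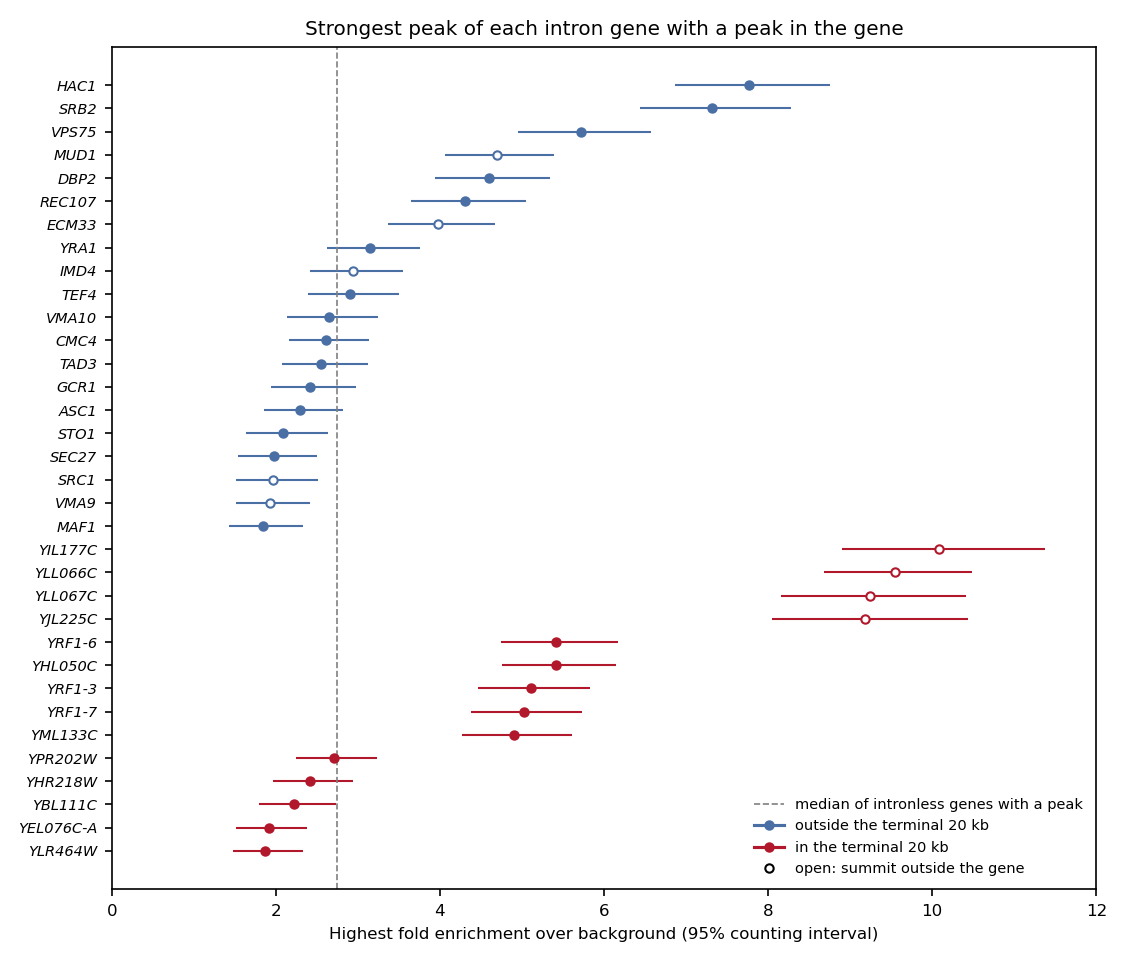
Highest fold enrichment (horizontal axis, ratio of IP to local background, with 95% counting intervals) of the peaks that overlap each intron gene, for 20 genes outside the terminal 20 kb (blue) and 14 within it (red), where open circles mark summits outside the gene. The dashed line is the median of intronless genes with a peak (2.74), and most blue genes have intervals that reach it or lie below it.

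Over these 20 genes the highest fold had a median of 2.78, and over the 836 intronless genes outside the terminal 20 kb it was 2.74. Below TEF4 in the order of fold, the list went on with VMA10 (2.64), another subunit of the vacuolar ATPase, CMC4 (2.62), a small protein of the mitochondrial intermembrane space, and TAD3 (2.55), a subunit of the tRNA adenosine deaminase. It ended with GCR1 (2.42), ASC1 (2.30), STO1 (2.09), the large subunit of the nuclear cap-binding complex, SEC27 (1.98), SRC1, VMA9 and MAF1 (1.84), a repressor of RNA polymerase III. Intervals of neighbours in this order overlapped, and that of MAF1 ran from 1.43 to 2.34. The peak of CMC4 also covered SNR11 on the opposite strand, and that of VMA9 touched SNR43.

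**Figure D4:**
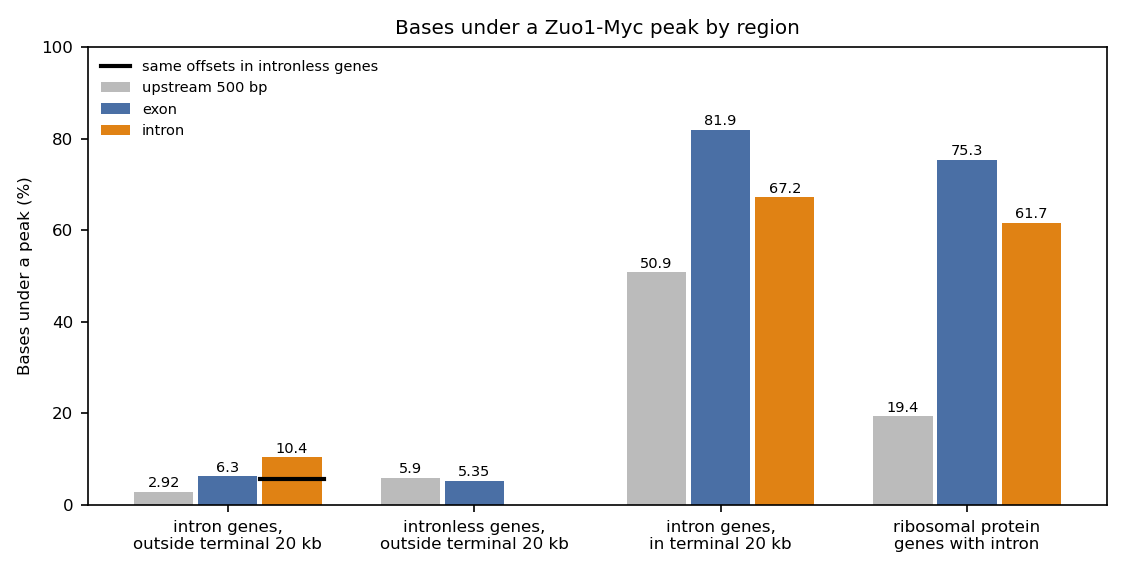
Percentage of bases under a peak (vertical axis) in the 500 bp upstream of the start codon (grey), in exons (blue) and in introns (orange) for 4 groups of genes. The black line marks the same distances from the start codon in intronless genes of like length (5.74%), which the introns of intron genes outside the terminal 20 kb exceed (10.4%), while both other intron groups stand above 60%.

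Introns outside the terminal 20 kb were covered to a larger share than exons, but this rested on few of them. Of 25589 intron bases 2658 lay under a peak (10.4%), beside 6.30% of exon bases and 2.92% of the upstream bases. At the same distances from the start codon, 5.74% of bases were covered in intronless genes whose length differed by at most 25%. Of the 175 introns, 164 had no base under a peak and 3 were covered entirely. The introns of DBP2 (858 of 1002 bases), YRA1 (503 of 766), IMD4 (408 of 408), GCR1 (299 of 751) and ASC1 (273 of 273) held 88.1% of all covered intron bases. Without these 5 introns, coverage was 1.42%, below the 5.81% at the matching distances in intronless genes. These 5 were picked for their covered bases and no intronless gene was left out, so a fall was fixed by this choice. The lower value is therefore no result about the other introns.

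Long introns had bases under a peak more often than short ones. Of 24 introns of at least 250 bp, a limit set after the values were seen, 7 had at least 1 base under a peak (29.2%), beside 9.11% for the same distances in intronless genes. Of 151 shorter introns, 4 did (2.65%, beside 6.89%). Among these, the intron of 72 bp in CMC4 was covered entirely. The median length of introns outside the terminal 20 kb was 94 bp, less than the shortest peak on an intron gene.

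Summits lay inside the intron in 2 of these genes, GCR1 and IMD4. GCR1 (chrXVI:412254-415362, plus strand), the activator of glycolytic genes, has an intron of 751 bp after 8 coding bases. Its summit was at position 692 from the start codon, in the last part of the intron, with 2.42-fold enrichment (1.94 to 2.98). The branch site sequence TACTAAC began 11 bases after the summit and the intron ended 67 bases after it. The 5′ splice site is GTATGA and not GTATGT. The window of 121 bp at the summit (chrXVI:412885-413005, plus strand) and the start of the intron (chrXVI:412262-412276) are printed to show where the summit falls, with the branch site and the 5′ splice site in capitals. TACTAAC, searched on both strands, occurs in 1.43% of all nuclear windows of this length. It is held by 132 of the 175 introns outside the terminal 20 kb. The share over all windows is therefore no measure for summits late in an intron.
GCR1 summit: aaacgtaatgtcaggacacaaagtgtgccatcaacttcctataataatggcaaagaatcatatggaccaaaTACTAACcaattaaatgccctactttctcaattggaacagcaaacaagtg
GCR1 intron start: GTATGAtcataacac

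In IMD4 (chrXIII:162194-164176, minus strand), an IMP dehydrogenase of guanine nucleotide synthesis, 3 peaks followed each other. The peak with its summit in the intron (position 690, 2.53-fold, 2.06 to 3.08) covered 697 exon bases and all 408 intron bases, including SNR54. The summit lay 178 bases before the end of the intron. TACTAAC began 60 bases after the summit, and the window of 121 bp held no full match. The GC content around this summit was 31.4%, beside 49.6% around the summit at position 1615 in the second exon (2.31-fold). The GC content around the GCR1 summit was 36.4%, so the 2 intron summits were not in GC-rich sequence. Both were under 3-fold, and of the 15 summits under 3-fold in these genes only 1 reached 50%. Introns outside the terminal 20 kb had a median GC content of 32.9%. Position in an intron and low fold cannot be told apart here. Of the 64-mers of IMD4, 3.96% recur in the genome, and in the other 19 genes with a peak outside the terminal 20 kb none did.

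In YRA1 and DBP2, 2 genes of mRNA export and RNA metabolism with long introns, summits lay close to a splice site. YRA1 (chrIV:1236558-1238004, plus strand) had its stronger summit (3.15-fold, 2.62 to 3.75) at position 1061, 10 bases after the last intron base. The weaker one (2.53) lay at position 139 in exon 1. DBP2 (chrXIV:413639-416281, plus strand) had 3 peaks, at positions 575 (1.83), 1235 (2.61) and 2538 (4.60), of which the middle summit was 39 bases before the intron. The YRA1 window of 121 bp at the stronger summit (chrIV:1237558-1237678, plus strand) is printed because it spans the junction of the intron, in lower case, with exon 2, in capitals. The intron holds no exact TACTAAC.
YRA1: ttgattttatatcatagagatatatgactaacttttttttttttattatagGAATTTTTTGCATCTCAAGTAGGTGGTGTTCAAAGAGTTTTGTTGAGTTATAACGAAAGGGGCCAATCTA

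HAC1 has an intron that the spliceosome does not remove. It is cut out by the endonuclease Ire1 when unfolded proteins accumulate, and its ends differ from those of other introns, as the printed first bases (chrVI:75840-75854, capitals for the first 6) and last bases (chrVI:76017-76091, capitals for the last 3) show. The peak reached 69 of its 252 bases, and the summit was 267 bases before it.
HAC1 intron start: CCGTGAttacgatga
HAC1 intron end: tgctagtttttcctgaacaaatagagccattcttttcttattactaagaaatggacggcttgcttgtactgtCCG

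Of the 4 intron genes that host an annotated snoRNA in the intron, the intron was covered entirely in IMD4 (SNR54) and ASC1 (SNR24), and not at all in TEF4 (SNR38) and NOG2 (SNR191). ASC1, the ribosome-bound homologue of RACK1, has the highest codon adaptation of the intron genes outside the terminal 20 kb (0.814). Its single peak, of 2.30-fold (1.85 to 2.81), spanned both exons and the intron, with the summit in exon 2. NOG2, a GTPase of ribosome assembly, had no peak in the gene. Of the 8 genes with 2 introns, VMA9 and TAD3 had a peak. The peak of VMA9 covered 66 bases of the second intron, and that of TAD3 lay in the last exon.

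Upstream regions were covered less than those of intronless genes outside the terminal 20 kb, but not over all intron genes. Of all 181, 26 had a peak in the 500 bp before the start codon (14.4%), beside 12.2% of intronless genes, and 6.62% of the upstream bases lay under a peak, beside 6.07%. Outside the terminal 20 kb, the 500 bp before the start codon overlapped a peak in 12 of 167 intron genes (7.19%), beside 12.1% of the intronless genes there and 13.3% of all nuclear genes. Of the upstream bases 2.92% lay under a peak, and 5.90% did in intronless genes. Of these 12 peaks, 9 had the summit in another gene, and that of YRA1 had it in the first exon of YRA1 itself. The summit lay in the upstream region in 3 cases, 1 of which (OM14) is also among the 9, namely in that of TFC3, which encodes a subunit of the RNA polymerase III factor TFIIIC (2.62), of OM14, a protein of the mitochondrial outer membrane (3.67, in COQ21), and of YKR005C, an uncharacterised gene (1.68). In 8 genes the peak touched the upstream region and not the gene. Apart from those 3, they were the alpha-tubulin gene TUB3 (summit in the phosphate transporter gene PHO84, 3.93), HPC2 of the HIR chromatin complex (in SDS24, 2.50), the tubulin folding factor CIN2 (in the Hsp90 gene HSP82, 2.09), the calcineurin subunit CNB1 (in DPH2, 1.94) and YOS1, which acts in transport from the endoplasmic reticulum to the Golgi (in RPS24A, 1.83).

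Sorted by function, peaks were spread thinly. The lists cover 94 of the 181 genes, and the role of each listed gene was not checked. None of 11 genes listed under ubiquitin, Rub1 and the proteasome, such as UBC4 and RUB1, had a peak in the gene. The same held for 10 genes of actin, tubulin and cytokinesis, 7 kinases, phosphatases and their subunits, and 5 genes of mitochondrial respiration. A peak in the gene was found in 3 of 8 genes of mRNA splicing, decay and export (MUD1, DBP2 and YRA1) and in 3 of 18 of vesicle transport and the vacuole (VMA10, SEC27 and VMA9). It was found in 2 of 14 meiotic genes (REC107 and SRC1), 2 of 8 translation genes (TEF4 and ASC1), 2 of 5 genes of transcription and replication (VPS75 and GCR1), 1 of 7 metabolic enzymes (IMD4) and 1 of 3 folding genes (HAC1). Beside the 12% of intron genes and 15.5% of intronless genes outside the terminal 20 kb, lists of this size allow no statement on a function.

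The 14 intron genes at chromosome ends lay on 13 ends, no further than 10676 bp from the end. Their copies resemble each other, and 73.9% to 100% of the 64-mers of each gene recur in the genome, with 8 genes at 100%. Reads of 64 bp from such sequence cannot be assigned to 1 copy, so the 14 genes are not independent observations and the peaks cannot be told apart between copies. Of their exon bases 81.9% lay under a peak, of their intron bases 67.2% and of their upstream bases 50.9%. Intronless genes in the same 20 kb had 15.7% of exon bases and 10.1% of upstream bases under a peak. These intronless genes were not sorted by membership in the Y′ element.

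**Figure D5:**
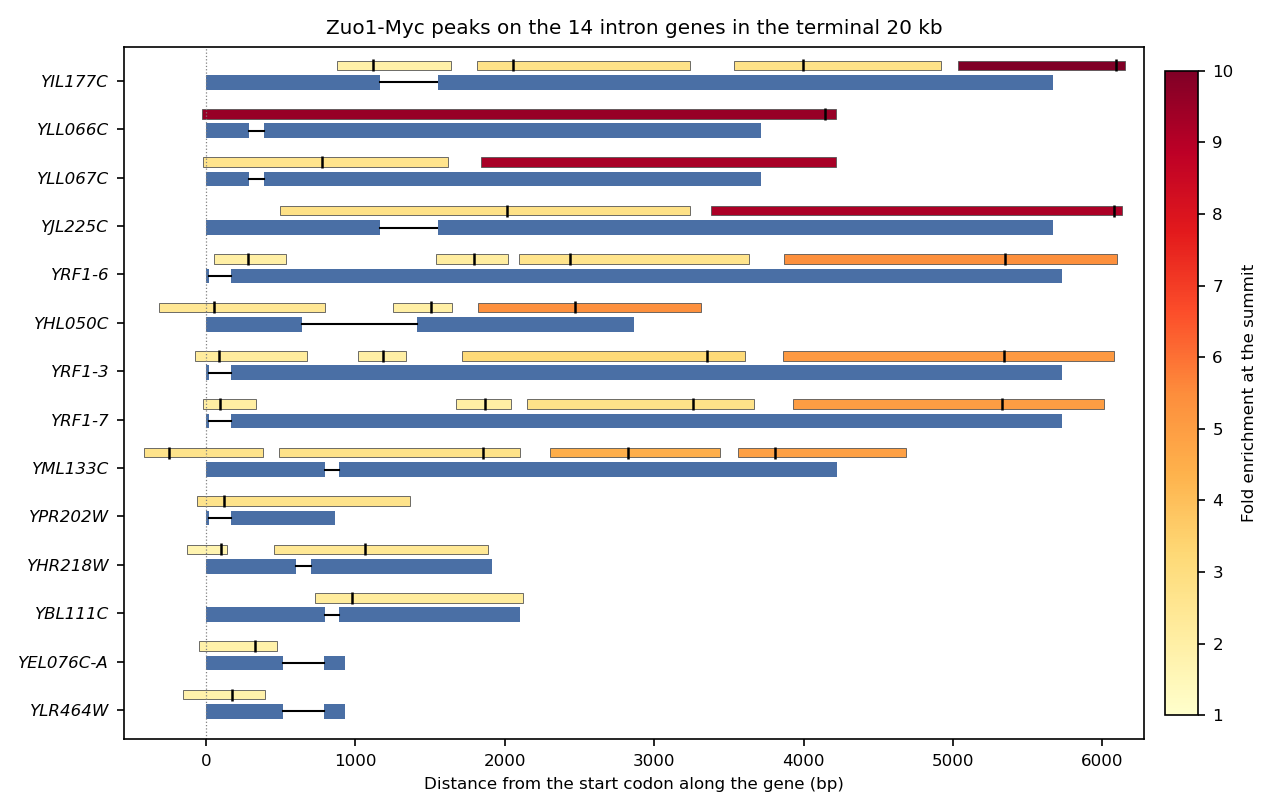
The 14 intron genes in the terminal 20 kb, drawn as distance from the start codon (dotted line) in bp, with exons in blue, introns as black lines and peaks as bars coloured by fold enrichment, with a tick at the summit. The darkest bars (9.19 to 10.08) run past the stop codon of 4 genes, and YRF1-3, YRF1-6 and YRF1-7 have a summit at almost the same position, 5343, 5346 and 5331. Bars are drawn up to 500 bp beyond a gene, and the summit of the stronger YLL067C peak falls outside this range.

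Among peaks that overlapped these genes, the highest folds were those of YIL177C (10.08), YLL066C (9.55), YLL067C (9.24) and YJL225C (9.19), in each case from a peak with the summit past the stop codon. In YIL177C, YLL067C and YJL225C this summit lay within the first 58 bases of the chromosome. Next came YRF1-6 and YHL050C (both 5.42), YRF1-3 (5.12), YRF1-7 (5.02) and YML133C (4.91), with the summit in an exon. Each fold is a ratio to the local background. At the 3 summits within the first 58 bases the background was 24.5 to 27.8 fragments, beside 43.1 in the 5.42-fold peak of YHL050C. IP fragments were 261 (YIL177C), 265 (YLL067C) and 233 (YJL225C), beside 238 in this YHL050C peak. YLL066C had 441 over a background of 45.3. The order by fold is therefore no order by IP fragments. Why the background was lower at these 3 summits was not tested. The 3 YRF1 genes, annotated as helicases of the Y′ element, had their summits at positions 5343 (YRF1-3), 5346 (YRF1-6) and 5331 (YRF1-7), near the same point of the gene. The other 5 genes stayed between 1.87 (YLR464W) and 2.71 (YPR202W). A peak of 10.77-fold (9.78 to 11.83) lay before YRF1-6, touched 213 bases of its upstream region and held 3 G4 motifs. Of the 34 peaks over terminal genes 8 contained a motif, beside 137 of the 1543 peaks of all nuclear chromosomes. These 8 peaks were 1115 to 4422 bp long, and peak length was not matched. Since the genes are also copies of each other, the 2 shares do not show an enrichment of motifs.

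Introns at chromosome ends were covered entirely in 10 of 14 genes, in part in YHL050C (316 of 773 bases) and YRF1-6 (116 of 148), and not at all in YEL076C-A and YLR464W. Summits lay in the intron in YRF1-3 (position 90, 2.21-fold), YRF1-7 (position 95, 2.08) and YPR202W (position 119, 2.71), which share an intron of 148 bp with the same ends. YRF1-6 has an intron of this length and with these ends too, but the peak over it had its summit in an exon (position 279, 2.02). All 14 introns hold TACTAAC, but only 4 start with GTATGT, beside 132 of the 175 introns elsewhere. The annotation states that splicing of YPR202W and YLR464W was predicted and not detected. The intron of YRF1-3 (chrVII:1084883-1085030, plus strand) is printed as an example of a terminal intron that holds a summit, with the 5′ splice site, the branch site and the last 3 bases in capitals.
YRF1-3: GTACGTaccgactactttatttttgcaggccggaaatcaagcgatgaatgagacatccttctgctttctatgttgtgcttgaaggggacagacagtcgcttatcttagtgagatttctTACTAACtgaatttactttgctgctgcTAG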

How the data were processed

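Values come from 1 list of peaks that the authors deposited for 2 IP and 2 input libraries together. Their single-end reads of 64 bp were mapped on sacCer3 by bowtie (bowtie2 in a second account). Narrow peaks were then called in 1 run of MACS 2.0 on all libraries, with a q-value limit of 0.05 and the C. elegans genome size. The command they printed puts 1 input among the IP files and 1 IP among the inputs. The IP was taken as treatment here. Since the deposited header comes from another MACS table, columns were assigned by position. The authors' MACS run gave each peak a fold enrichment (a ratio of IP to background), the p-value and q-value of a Poisson test as −log10, and the summit. The deposited score repeats the −log10 q times 10 as a whole number.

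IP fragments at a summit were computed from the fold, read as (fragments + 1) divided by (background + 1), and the p-value. They met the deposited −log10 p within 0.000317 for all 1594 peaks and ranged from 43 to 522 (median 91). This is the only depth used here, and it sets the precision of each fold. Exact Poisson intervals (95%) come from these fragments and leave out PCR duplicates and the error of the background.

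A peak counted where it shared at least 1 bp with an exon (coding segment), an intron or the 500 bp before the start codon. Intronless genes of like length were weighted over 5 length classes set by the intron genes. Samples were grouped as IP or input from their labels. The scripts were tested on simulated peaks with known overlaps. Python 3.11.15, NumPy 2.4.6, SciPy 1.17.1, pandas 2.3.3 and matplotlib 3.10.9 were used. Named are the 20 genes with the highest fold, genes with a summit in an intron, a snoRNA in the intron or 2 introns and a peak, up to 4 genes with a peak per functional list, and the genes of the terminal 20 kb. Genes named for high GC content or codon adaptation without a peak, IAI11, PHO85, the genes with a peak only upstream, UBC4, RUB1 and the neighbours that hold a summit were picked with their values in view. The genes and lists were chosen with earlier results of these data known. Reads, microarray and qPCR values were not used here.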

Additional observations from a re-analysis of the deposited data

How the results depend on the processing

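Of 66 alternative values 37 stayed within set limits, 28 moved beyond them and 1 changed sign. Some of the 37 could not move. Other classes of the intronless genes leave the 34 genes with a peak as they are, and the fold of the computed fragments returns the deposited fold. The count of 37 is therefore no measure of stability. The limits were 1.5 times for counts of genes and summits, and the exact binomial 95% interval over the genes for shares of genes and bases. For the median fold, the counting interval of the peak with the nearest fold was used. These limits only sort the values and are no estimate of error, because genes are not replicates. They were narrower for the share of the many intronless genes than for counts of intron genes. Counts within the limits still varied (26 genes with a peak upstream became 19 with 250 bp and 38 with 1000 bp). Outside the terminal 20 kb, genes with a peak fell from 34 to 20 (also for exons), from 23 to 11 for introns and from 26 to 12 upstream, and bases under a peak from 24.1% to 6.30% (exon), 16.7% to 10.4% (intron) and 6.62% to 2.92% (upstream), since 14 genes, all with a peak, were left out. The difference between intron bases and the same distances in intronless genes fell from 10.9 to 4.65 percentage points. With peaks of at least 3-fold, these values were 17 genes (exons 17, introns 6, upstream 9), 11.0%, 4.10% and 2.60%, with a difference of 0.665 and an intronless share of 7.10% in place of 14.8%. The intronless share was 13.7% with a −log10 q of at least 5, 10.6% with the summit in the gene, 13.2% with 100 bp of overlap and 12.4% in classes of length and GC content. With the summit required, 5 genes had a peak in an intron and 9 upstream. Upstream summits changed from 9 to 4 with 250 bp and to 32 with 1000 bp. Alternatives chosen after seeing the data left out the 5 introns with the most covered bases, which gave 9.63% and a difference of 3.76, or 1.42% and a difference of −4.39 outside the terminal 20 kb. A fall was fixed by this choice, which left out no intronless gene. Leaving out genes within 500 bp of a tRNA gene kept all 34 genes with a peak and moved no value beyond the limits.

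No paired analysis was possible because the list is pooled. For the same reason no replicate was left out, and no value of a single library was compared with the others. Peaks are longer than most introns, which limits how finely a peak over an intron of about 100 bp is placed.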
